A study of Mus musculus with 60 samples.

Results

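The liver response of INS mice to the highest dose of TCDD, 1000 µg/kg, was compared with the response of DEL mice to the lowest dose, 125 µg/kg. The question was whether a dose 8 times as high makes up, gene by gene, for the weaker response of the INS line. The comparison used 19 of the 60 arrays of the series, chosen by line and dose from the labels and not by any measured value. They were 5 INS mice given corn oil, 5 INS mice given 1000 µg/kg, 5 DEL mice given corn oil and 4 DEL mice given 125 µg/kg, with 1 animal per array. All were male C57BL/6J mice of 12-15 weeks that carried a transgenic variant of the aryl hydrocarbon receptor (AHR), and DEL and INS are the names of these variants in the labels. TCDD (tetrachlorodibenzo-p-dioxin) was given once by oral gavage in corn oil, and the liver was taken 96 hours later. The rWT line served here to choose a reference list of responding genes on other animals. The sources used here do not give the structure of each variant, the promoter of the transgene, the number of founders or whether the mice also kept their own receptor.

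AHR is a transcription factor that rests in the cytoplasm with chaperones, moves to the nucleus when it binds a dioxin, pairs there with ARNT and binds DNA at sites with the core GCGTG. Its best known targets in liver are the cytochrome P450 genes Cyp1a1, Cyp1a2 and Cyp1b1, and Ahrr and Tiparp, whose products restrain the receptor. In rodents, high doses of TCDD are also known for fatty liver, inflammation, and loss of male-biased and metabolic gene expression, and rat strains with an altered transactivation domain of the receptor are known to resist many of these effects. The labels do not say whether INS and DEL stand for such alterations.

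Cyp1a1 and Cyp1b1, canonical targets of the receptor, were induced in INS at 1000 µg/kg with no called difference from DEL at 125 µg/kg. Other targets, Ahrr and Xdh, had a called difference, lower in INS. The genes of inflammation, matrix, cell division and liver metabolism that moved in DEL were mostly not called in INS. A missing call in INS is not a called difference. For 66.7% of the features called in DEL, neither the INS response nor the difference was called. Values are log2 expression throughout, so 1 unit is a 2-fold change, and a feature (1 per gene) was called at an adjusted p under 0.05 in limma's moderated test with Benjamini-Hochberg adjustment over all 21115 features. In DEL, 4052 features were called against corn oil, 19.2% of those tested, of which 2266 were higher (10.7%) and 1786 lower (8.46%). In INS, 275 were called (1.3%), 137 higher (0.649%) and 138 lower (0.654%), although the dose was 8 times as high. The difference between the responses, INS minus DEL, was called for 1181 features (5.59%), 320 higher (1.52%) and 861 lower (4.08%). That split depended on the scaling of the arrays. It was 515 higher and 724 lower after quantile normalization of the 19 arrays, and 803 higher and 574 lower after centring each array on its median.

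Levels of the lines lay on different scales. The array mean was 6.231 to 6.277 in DEL and 5.584 to 5.727 in INS, while the highest value of an array was 13.64 to 13.81 in DEL and 13.62 to 13.72 in INS. A constant offset cancels in each TCDD minus corn oil response, and a change of scale would not. Levels are therefore compared within a line, and only responses between lines. Centring on the median moved the median DEL response over all features from -0.04 to -0.25 and the median difference from 0.02 to 0.23. Treatment and any unlabelled order of handling within a line cannot be told apart.

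**Figure D1:**
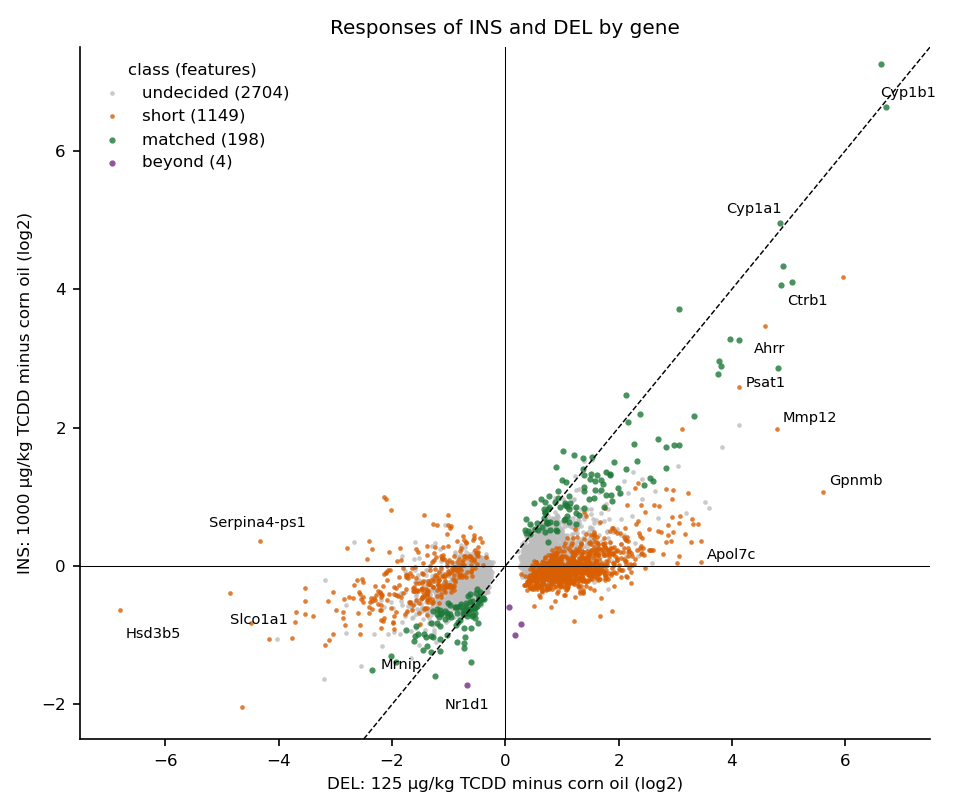
Response of each feature in DEL at 125 µg/kg (horizontal axis) and in INS at 1000 µg/kg (vertical axis), both TCDD minus corn oil in log2 units, for the features sorted into 4 classes; the dashed line marks equal responses. Cyp1a1 and Cyp1b1 lie on the dashed line, while most of the 1149 short features lie near 0 on the INS axis.

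Of the classical AHR targets, the cytochrome P450 genes rose in both lines with no called difference. Cyp1a1 read 8.53, 8.625, 7.531, 8.208 and 7.763 in DEL corn oil mice and 13, 12.99, 12.84 and 13.06 in DEL mice given 125 µg/kg. In INS it read 7.586, 7.071, 6.882, 7.94 and 7.931 with corn oil and 12.54, 12.61, 12.53, 12.41 and 12.1 at 1000 µg/kg. Treated and control arrays did not overlap in either line. The Cyp1a1 response was 4.84 ± 0.23 (SE, n = 4 and 5) in DEL and 4.96 ± 0.22 (n = 5 and 5) in INS, and their difference of 0.11 had a 95% interval of -0.54 to 0.77 (limma, adjusted p = 0.915). Treated levels of Cyp1a1 lay within 2 log2 units of the highest value on the arrays, and whether its signal was still linear there was not tested.

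Cyp1b1, which lies lower on the scale, gave the largest rise of any named gene in both lines. It read 6.677, 5.603, 5.528, 4.93 and 5.597 in DEL controls and 12.28, 12.55, 12.32 and 12.41 at 125 µg/kg. INS mice read 4.194, 4.301, 4.518, 4.109 and 4.201 with corn oil and 10.6, 10.87, 11.5, 11.16 and 10.35 at 1000 µg/kg, again without overlap. The responses of Cyp1b1 were 6.72 ± 0.25 in DEL and 6.63 ± 0.24 in INS (difference -0.09, 95% interval -0.82 to 0.64, adjusted p = 0.941). Treated Cyp1b1 lay nearer to the highest value of an array in DEL (13.64 to 13.81) than in INS (13.62 to 13.72). Whether its signal was still linear there was not tested. Cyp1a2, already high in control liver, rose by 0.76 ± 0.09 in DEL and 0.85 ± 0.09 in INS (difference 0.09, adjusted p = 0.81). Treated Cyp1a2 read 13.47 to 13.57 in DEL and 13.25 to 13.49 in INS, close to the highest value of any feature on an array, and whether its signal was still linear there was not tested either. Ahr itself was not called in either line (0.27 ± 0.12 in DEL, adjusted p = 0.155, and 0.18 ± 0.12 in INS, adjusted p = 0.659).

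Promoters are shown for 4 named genes that responded in both lines. They are also shown for the named genes with the largest fall and rise in DEL among those with a called difference between lines. Each is 300 bases, 250 before and 50 after the start of the gene, 5′ to 3′, from RefSeq on build GRCm38.p6. They lie at chr9:57697363-57697662, plus strand, for Cyp1a1; chr17:79715012-79715311, minus strand, for Cyp1b1; chr1:88094751-88095050, plus strand, for Ugt1a7c; chr8:111690961-111691260, minus strand, for Ctrb1; chr3:98645485-98645784, minus strand, for Hsd3b5; and chr6:49036268-49036567, plus strand, for Gpnmb. Capitals mark the AHR core GCGTG or its reverse complement CACGC.
Cyp1a1: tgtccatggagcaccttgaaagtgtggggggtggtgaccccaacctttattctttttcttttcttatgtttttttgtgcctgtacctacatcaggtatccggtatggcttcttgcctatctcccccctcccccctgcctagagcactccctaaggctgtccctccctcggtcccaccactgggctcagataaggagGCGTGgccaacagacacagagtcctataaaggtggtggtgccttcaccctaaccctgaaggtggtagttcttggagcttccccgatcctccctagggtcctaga
Cyp1b1: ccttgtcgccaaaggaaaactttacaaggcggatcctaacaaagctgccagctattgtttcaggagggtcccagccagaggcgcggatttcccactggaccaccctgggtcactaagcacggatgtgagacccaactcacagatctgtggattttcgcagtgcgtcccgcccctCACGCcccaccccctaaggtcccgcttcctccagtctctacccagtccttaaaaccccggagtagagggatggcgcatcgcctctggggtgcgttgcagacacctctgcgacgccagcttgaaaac
Ugt1a7c: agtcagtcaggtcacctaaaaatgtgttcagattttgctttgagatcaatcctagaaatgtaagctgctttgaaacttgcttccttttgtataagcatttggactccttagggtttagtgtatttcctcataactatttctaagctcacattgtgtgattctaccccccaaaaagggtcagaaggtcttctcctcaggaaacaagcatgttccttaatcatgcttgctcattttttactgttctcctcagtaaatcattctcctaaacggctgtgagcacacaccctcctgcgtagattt
Ctrb1: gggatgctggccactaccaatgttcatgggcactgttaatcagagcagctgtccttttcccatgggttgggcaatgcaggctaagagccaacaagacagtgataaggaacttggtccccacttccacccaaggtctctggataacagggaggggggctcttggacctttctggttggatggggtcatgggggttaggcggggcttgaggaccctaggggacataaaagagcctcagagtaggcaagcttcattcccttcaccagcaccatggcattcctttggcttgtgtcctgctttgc
Hsd3b5: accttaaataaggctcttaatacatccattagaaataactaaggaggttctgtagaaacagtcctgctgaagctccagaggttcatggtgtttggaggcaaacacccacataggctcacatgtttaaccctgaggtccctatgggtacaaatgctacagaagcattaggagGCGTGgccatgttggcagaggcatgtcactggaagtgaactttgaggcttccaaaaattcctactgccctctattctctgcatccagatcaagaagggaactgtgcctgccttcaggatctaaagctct
Gpnmb: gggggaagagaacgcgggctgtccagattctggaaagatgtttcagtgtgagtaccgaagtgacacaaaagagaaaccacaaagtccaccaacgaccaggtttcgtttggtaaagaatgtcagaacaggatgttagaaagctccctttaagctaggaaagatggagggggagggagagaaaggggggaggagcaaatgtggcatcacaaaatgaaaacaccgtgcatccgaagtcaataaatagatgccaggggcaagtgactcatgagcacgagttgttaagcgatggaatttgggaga

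The core stood once in the windows of Cyp1a1, Cyp1b1 and Hsd3b5, starting 54, 76 and 79 bases before the start, and was not in those of Ugt1a7c, Ctrb1 and Gpnmb. GCGTG was searched on both strands, and 43.9% of the 16042 measured features with a listed promoter held it. Among features with a listed promoter, it was in 50 of 88 (56.8%) that rose to a matched degree in both lines. It was in 40 of 70 (57.1%) that fell to a matched degree. Of features whose rise fell short in INS, 301 of 666 (45.2%) held it, and of those whose fall fell short, 90 of 252 (35.7%). A feature counted where any of its listed windows held the core. These shares are a description, and a match to 5 letters is not a binding site.

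Tiparp and Ahrr, the feedback regulators, rose strongly in both lines. Tiparp, an ADP-ribosyltransferase, rose by 3.98 ± 0.21 in DEL and 3.29 ± 0.20 in INS, and the difference of -0.69 was not called (95% interval -1.29 to -0.09, adjusted p = 0.202). Ahrr, the AHR repressor, read 3.852, 4.387, 4.298, 4.206 and 4.331 in DEL controls and 8.953, 8.843, 8.337 and 9.052 after TCDD. INS values were 4.02, 3.88, 4.141, 4.212 and 3.949 with corn oil and 6.905, 7.774, 8.456, 7.112 and 7.327 after TCDD. The Ahrr response was 4.58 ± 0.23 in DEL and 3.47 ± 0.22 in INS, a difference of -1.11 (adjusted p = 0.0445). That call ended in 16 of 19 fits that left out 1 array and in 4 of 7 other settings (adjusted p 0.00295 to 0.173).

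Other AHR targets were less uniform. Nqo1, a quinone reductase that AHR and NRF2 both induce, rose by 3.33 ± 0.31 in DEL and 2.17 ± 0.29 in INS (difference -1.16, 95% interval -2.04 to -0.27, adjusted p = 0.133). Ugt1a7c, a glucuronosyltransferase, rose by 4.81 ± 0.50 and 2.86 ± 0.48 (difference -1.95, adjusted p = 0.12). Selenbp1, a selenium-binding protein, rose by 1.51 ± 0.15 and 1.32 ± 0.14 (difference -0.19, 95% interval -0.62 to 0.25). Xdh, xanthine dehydrogenase, rose by 0.87 ± 0.13 in DEL and read 0.10 ± 0.12 in INS (difference -0.78, adjusted p = 0.0131), a call that ended with median centring (adjusted p = 0.0793). Of 14 measured members of an AHR target list, 10 rose in DEL and 8 in INS, with medians of 1.34 and 1.09, and the difference was called, lower, for Ahrr and Xdh. Genes of the Ugt1a locus share exons, so reads of a probe set there may not separate them.

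**Figure D2:**
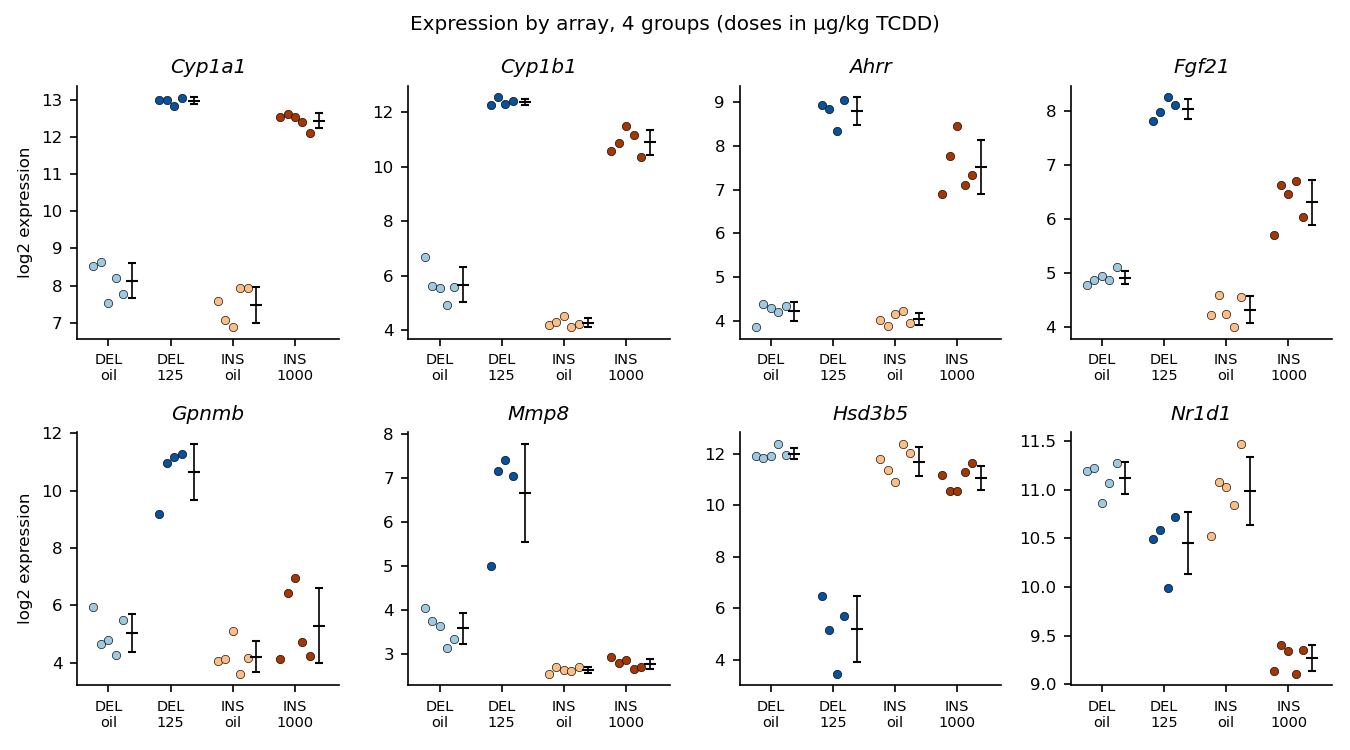
Log2 expression of 8 genes on each of the 19 arrays (points), with group mean and SD (bars), in DEL and INS mice given corn oil or TCDD. The AHR targets Cyp1a1, Cyp1b1 and Ahrr are raised in both treated groups, and Gpnmb, Mmp8 and Hsd3b5 part from control in all DEL arrays at 125 µg/kg. Nr1d1 lies below the controls of its line in both treated groups, by more in INS at 1000 µg/kg.

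Each of the 4052 features called in DEL was sorted by whether INS at 1000 µg/kg reached the DEL response. The response in INS fell short for 1149 features (28.4%), meaning that the difference between lines was called against the direction of the DEL effect; 834 of these had risen in DEL and 315 had fallen. It was matched for 198 (4.89%), meaning that both responses were called with 1 sign and the difference was not; for 136 of them the 95% interval of the difference lay within 1 log2 unit of 0. For 2704 (66.7%) neither statement could be made, because INS was not called and the difference was not either. The INS estimate had the sign of DEL for 2260 of these undecided features. Among short features only 28 were called in INS with the sign of DEL, and the INS estimate had the sign of DEL for 588 and the opposite sign for 561. The median INS response as a share of the DEL response was -3.44% for short rises and 15.9% for short falls, and 80.9% and 84.4% for matched rises and falls. The sorting used these same responses and so sets that contrast, which is a description.

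Matched features made up a larger share of the largest DEL rises than of any other size range, though more of those rises fell short. Of 39 features that rose by 3 or more in DEL, 15 were matched and 18 fell short, and 20 were called in INS. For only 2 of these 15 did the interval of the difference lie within 1 unit. For the rest of the 15 the difference was not called, and an equal response was not shown. Of 21 that fell by 3 or more in DEL, none was matched, 18 fell short and 3 were called in INS. The median INS response was 49.6% of the DEL response in the first of these bins and 19.6% in the second. Among the 1399 rises under 1 unit, 35 were matched, 34 of them with an interval within 1 unit, 318 fell short and 1046 were undecided. A matched feature also had to be called in INS, which is easier for a large effect. The matched shares of different sizes therefore do not show by themselves where INS came closest to DEL.

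**Figure D3:**
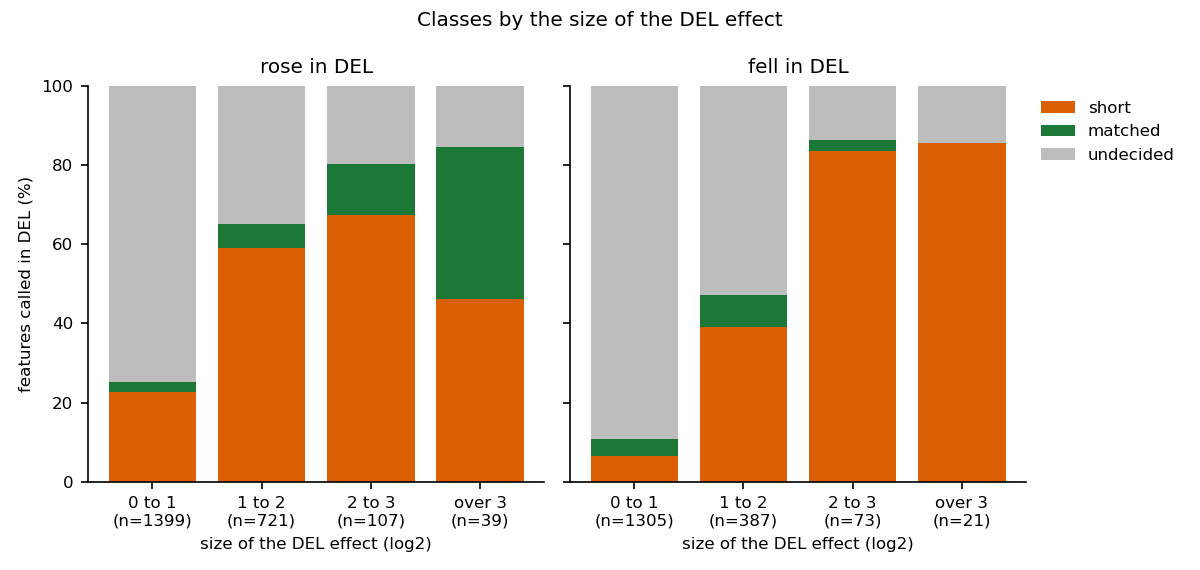
Share of the features called in DEL (vertical axis, percent) that were short, matched or undecided in INS, by the size of the DEL effect in log2 units and its direction, with the number of features under each bar; the 1 feature beyond the DEL fall, Nr1d1, is not drawn. Matched features make up 15 of the 39 largest rises and 0 of the 21 largest falls.

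Sorting on the DEL call favours features whose DEL effect was overestimated, so the comparison was repeated on features chosen on the 17 rWT arrays, none of which is among the 19. In rWT, 2108 features (9.98%) were called and moved by at least 1 unit when TCDD of all doses was set against corn oil. Of the 1312 that rose in rWT, 82.1% were called higher in DEL and 6.25% in INS, with median responses of 1.09 and 0.08, and the difference was called short in INS for 42.1%. Of the 796 that fell, 81.5% were called lower in DEL and 6.16% in INS, with medians of -0.998 and -0.29, and 28.5% were called short. In 4 rWT arrays, 3 of them from corn oil mice, Xist went against the male label, so sex and treatment were in part mixed in the choice of this list. Without them the list held 1630 rises and 973 falls, of which 76.9% and 76.5% were called in DEL and 5.21% and 6.06% in INS. In none of the 19 arrays did Xist stand apart (2.415 to 3.134).

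A slope of each array on the rWT response over that list gave the size of its response in percent of rWT. The 5 INS arrays at 1000 µg/kg gave 6.98%, 22.4%, 26.1%, 8.5% and 8.55% (14.5 ± 9.01, SD). The 4 DEL arrays at 125 µg/kg gave 37%, 63.7%, 88.7% and 68.9% (64.6 ± 21.3). No INS array reached the lowest DEL array, and the spread within each group was wide. INS arrays at 125 µg/kg gave 15.7%, 12.1%, 10.9% and 5.2%, overlapping those at 1000 µg/kg. DEL arrays at 1000 µg/kg gave 72.9%, 89.4%, 88.9% and 56.7%, overlapping those at 125 µg/kg. Across features the DEL and INS responses, which share no sample, had a Pearson correlation of 0.509 over all 21115 features and 0.641 over the rWT list; features are not independent replicates.

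**Figure D4:**
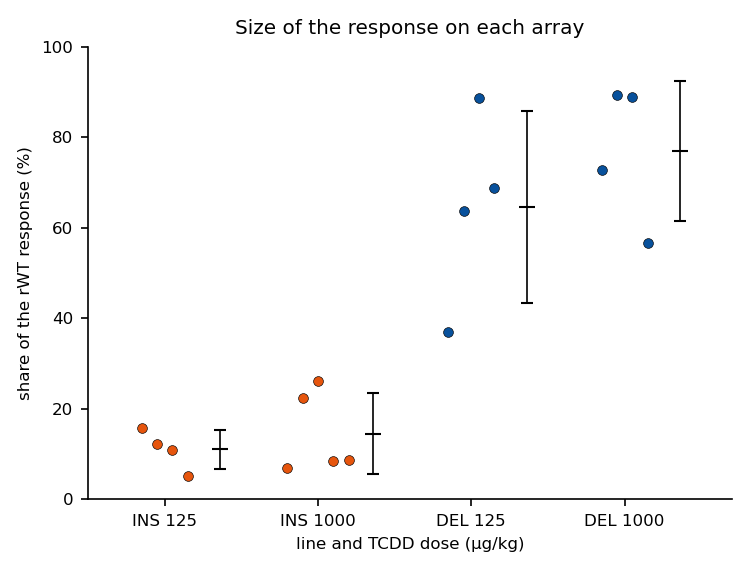
Size of the response on each treated array (points), as the slope of its TCDD minus corn oil values on the rWT response over 2108 features, in percent, with group mean and SD (bars). All 5 INS arrays at 1000 µg/kg, from 6.98% to 26.1%, lie below all 4 DEL arrays at 125 µg/kg, from 37% to 88.7%.

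The number of called differences depended on single DEL arrays, among them the one with the weakest response. Without DEL TCDD 125 replicate 1, the difference was called for 2116 features and 2013 fell short; without replicate 3 it was called for 745, and without replicate 4 for 724. The INS response was called for 168 features without INS CornOil replicate 1, 173 without INS CornOil replicate 5 and 183 without INS TCDD 1000 replicate 2.

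Within INS, few features were called between 125 and 1000 µg/kg. With 4 and 5 arrays, few calls do not show that few genes changed. The direct comparison of the 2 doses called 5 features (0.0237%), all lower at 1000 µg/kg, while 1963 had an unadjusted p under 0.05. At 125 µg/kg, 26 features were called in INS against corn oil. Set against DEL at 125 µg/kg, INS at the equal dose differed for 1130 features (5.35%), 499 higher and 631 lower, close to the 1181 at 1000 µg/kg; both comparisons share the DEL arrays and the INS controls.

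Some targets stood nearer to DEL at the higher dose, but the step itself was not called. At 125 µg/kg the INS response was 2.38 for Tiparp, and its difference from DEL was -1.59 (adjusted p = 0.0242), beside -0.69 at 1000 µg/kg; the step between doses was 0.90 ± 0.29 (adjusted p = 0.313). For Nqo1 the equal-dose difference was -1.78 (adjusted p = 0.0152) and the step 0.63 ± 0.30 (adjusted p = 0.53). For Ahrr they were -2.23 (adjusted p = 0.00503) and 1.12 ± 0.31 (adjusted p = 0.211). Cyp1a1 had reached 4.72 in INS at 125 µg/kg, and its step was 0.24 ± 0.23 with a 95% interval of -0.24 to 0.71. Cyp1b1 had reached 5.88, with a step of 0.75 ± 0.31 (adjusted p = 0.472). For Gpnmb and Hsd3b5 the step was 0.14 ± 0.56 and 0.35 ± 0.50.

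Other genes that rose in both lines had varied functions. Among matched rises with an interval within 1 unit, Ugt1a9 rose by 2.37 ± 0.23 in DEL and 2.20 ± 0.22 in INS, and Fmo2, a flavin monooxygenase, by 1.54 ± 0.27 and 1.57 ± 0.25. Lamb3, a laminin chain, rose by 1.36 ± 0.27 and 1.40 ± 0.25, Dclk3, a kinase, by 1.39 ± 0.23 and 1.32 ± 0.22, and Acot3, a peroxisomal acyl-CoA thioesterase, by 1.62 ± 0.23 and 1.32 ± 0.22. Acot3 lost both calls when all 60 arrays entered the fit (adjusted p = 0.0562 and 0.39). A further 3 genes, chosen after their values were seen for their size, were Nptx1, a neuronal pentraxin (4.91 ± 0.29 and 4.33 ± 0.27), Ecel1, an endopeptidase (5.06 ± 0.36 and 4.10 ± 0.34), and Pcp4l1 (3.07 ± 0.31 and 3.72 ± 0.30). None of their differences was called (adjusted p 0.337 to 0.524).

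Ctrb1, a pancreatic digestive proenzyme, rose in both lines. It read 4.39, 4.164, 4.628, 4.258 and 4.094 in DEL controls and 7.62, 9.05, 10.56 and 9.488 after TCDD. INS livers read 3.912, 3.316, 3.721, 3.812 and 3.635 with corn oil and 7.285, 7.48, 9.785, 7.558 and 6.618 after TCDD. The responses were 4.87 ± 0.50 and 4.07 ± 0.47 and their difference was not called (-0.81, adjusted p = 0.639). Ctrb1 was the only one of 15 measured pancreas markers called in either line, and the mean level of that list, Ctrb1 included, was 3.75 to 4.039 in treated and 3.5 to 3.712 in control INS livers.

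Matched falls were smaller. Mrnip fell by 1.31 ± 0.15 in DEL and by 1.24 ± 0.14 in INS, and Sgk2, a serum and glucocorticoid-regulated kinase, by 1.45 ± 0.26 and by 1.21 ± 0.24. Sort1, sortilin, a sorting receptor that bears on lipoprotein secretion, read 7.61, 7.843, 7.888, 8.172 and 8.512 in DEL controls and 6.706, 6.763, 6.934 and 6.981 after TCDD. The INS arrays read 7.556, 7.42, 7.024, 7.58 and 7.654 with corn oil and 5.919, 6.083, 6.221, 6.761 and 6.965 after TCDD. Neither line overlapped with its controls, and the responses of Sort1 were -1.16 ± 0.20 and -1.06 ± 0.19 (difference 0.10, 95% interval -0.48 to 0.69). Emp2 (-1.15 and -1.23), Arsa, arylsulfatase A (-1.27 and -1.02), Pde4b, a cAMP phosphodiesterase (-1.31 and -1.01), Fbxo21 (-1.03 and -0.99) and Plekhf1 (-1.15 and -0.86) fell likewise in both lines. The Sgk2 call in INS ended when all 60 arrays entered the fit (adjusted p = 0.0855), and that of Emp2 ended in 4 of 19 fits that left out 1 array.

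Some genes of the stress response, Fgf21, Psat1 and Atf3, rose in both lines, with lower estimates in INS. Fgf21, a hormone of fasting and hepatic stress, read 4.782, 4.869, 4.955, 4.872 and 5.121 in DEL controls and 7.805, 7.982, 8.242 and 8.098 after TCDD. In INS it read 4.235, 4.597, 4.243, 4.006 and 4.557 with corn oil and 5.711, 6.625, 6.454, 6.707 and 6.028 after TCDD. Its response was 3.11 ± 0.17 in DEL and 1.98 ± 0.16 in INS, a difference of -1.13 (95% interval -1.64 to -0.63, adjusted p = 0.00883). Psat1, an enzyme of serine synthesis, rose by 4.12 ± 0.28 and 2.59 ± 0.26 (difference -1.53, adjusted p = 0.0234). Both differences lost their call when all 60 arrays entered the fit (adjusted p = 0.359 and 0.358). Atf3, a stress transcription factor, rose by 2.98 ± 0.32 and 1.75 ± 0.30, and this difference of -1.23 was not called (adjusted p = 0.12). Of 19 measured genes of serine synthesis and the integrated stress response, 12 rose in DEL and 6 in INS, with medians of 0.97 and 0.29. The difference was called, lower, for 4 of them. Of 17 measured genes of the unfolded protein response, none was called higher in either line and 2 fell in DEL.

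Growth arrest genes divided. Cdkn1a, the p21 inhibitor of cyclin-dependent kinases, rose by 3.76 ± 0.54 in DEL and 2.77 ± 0.51 in INS (difference -0.99, 95% interval -2.53 to 0.56). Gadd45b, a stress sensor, rose by 2.94 ± 0.31 in DEL and read 0.97 ± 0.29 in INS (adjusted p = 0.125), a difference of -1.97 (adjusted p = 0.01). Tnfrsf10b, a death receptor, rose by 2.72 ± 0.35 in DEL and read 0.86 ± 0.33 in INS (difference -1.85, adjusted p = 0.0287, a call that ended in 7 of 19 fits that left out 1 array). Of 19 measured p53 targets and growth arrest genes, 10 rose and 1 fell in DEL, and 1 rose in INS.

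Genes of the NRF2 pathway, which answers oxidative stress, were mostly called higher in DEL and mostly not called in INS. Of 20 measured NRF2 targets, 12 rose in DEL and 2 in INS, with medians of 0.85 and 0.15, and the difference was called, lower, for 4. Slc7a11, the cystine transporter, read 4.46, 4.222, 4.176, 4.109 and 4.079 in DEL controls and 6.14, 7.041, 9.466 and 7.45 after TCDD. The INS values were 3.473, 3.461, 3.594, 3.393 and 3.752 with corn oil and 3.824, 4.683, 4.627, 3.828 and 3.74 after TCDD, overlapping by 1 array. The Slc7a11 response was 3.31 ± 0.41 in DEL and 0.61 ± 0.39 in INS (difference -2.71, adjusted p = 0.00837). Cbr3, a carbonyl reductase, rose by 3.83 ± 0.50 in DEL and read 1.72 ± 0.47 in INS (adjusted p = 0.0845), and Hmox1, haem oxygenase, rose by 1.63 ± 0.28 and read 0.25 ± 0.26 (difference -1.38, adjusted p = 0.0383). The Hmox1 call ended in 15 of 19 fits that left out 1 array.

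Glutathione S-transferases moved in different directions. Gstm3 rose by 1.42 ± 0.14 in DEL and 0.73 ± 0.13 in INS (difference -0.69, adjusted p = 0.0385, a call that ended in 13 of 19 fits that left out 1 array). Gstm6 fell by 1.37 ± 0.13 in DEL and read -0.49 ± 0.13 in INS (difference 0.88, adjusted p = 0.00824). Gstt1 fell by 1.07 ± 0.14 in DEL and read -0.14 ± 0.13 in INS (difference 0.93, adjusted p = 0.008). Of 16 measured members of the family, 2 rose and 6 fell in DEL and 1 rose in INS. Near-identical members of the family may share probe signal.

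Macrophage genes rose in DEL and were not called in INS. Gpnmb, a glycoprotein of lipid-laden macrophages, read 5.924, 4.663, 4.781, 4.256 and 5.5 in DEL controls and 9.19, 10.95, 11.16 and 11.28 after TCDD. In INS it read 4.062, 4.112, 5.099, 3.615 and 4.154 with corn oil and 4.116, 6.418, 6.935, 4.707 and 4.218 after TCDD. The DEL groups did not overlap, and in INS 2 arrays, replicates 2 and 3, lay above all controls. The Gpnmb response was 5.62 ± 0.55 in DEL and 1.07 ± 0.52 in INS, a difference of -4.55 (95% interval -6.13 to -2.96, adjusted p = 0.00249). Itgam, an integrin of myeloid cells (difference -2.21, adjusted p = 0.00302), Marco, a scavenger receptor (-1.95, adjusted p = 0.00718), and Trem2, a lipid receptor (-2.19, adjusted p = 0.0277), rose in DEL and were not called in INS; the Trem2 difference ended in 8 of 19 fits that left out 1 array. Clec7a, the beta-glucan receptor, rose by 3.40 ± 0.47 in DEL and read 0.61 ± 0.45 in INS (difference -2.79, adjusted p = 0.015).

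Of 22 measured Kupffer cell and macrophage markers, 21 rose in DEL and none was called in INS, with medians of 1.31 and -0.01, and the difference was called, lower, for 15. The mean level of the list was 8.254 to 9.765 in treated and 7.507 to 7.843 in control DEL livers, and 7.058 to 7.493 in treated and 7.117 to 7.399 in control INS livers. In bulk liver, more cells of a type and more RNA per cell cannot be told apart. Of 15 neutrophil markers, 10 rose in DEL and none was called in INS, with medians of 1.75 and 0.08, and 9 differences were called, all lower.

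Among the neutrophil markers, Mmp8, a collagenase, read 4.037, 3.744, 3.646, 3.148 and 3.34 in DEL controls and 4.997, 7.164, 7.406 and 7.055 after TCDD. In INS its range was 2.56 to 2.708 with corn oil and 2.652 to 2.926 after TCDD, and these groups overlapped, also no higher than Xist (up to 3.134). The Mmp8 difference was -2.93 (adjusted p = 0.00137). S100a8, a calgranulin, differed by -2.23 (adjusted p = 0.00207) and Mmp9, a gelatinase, by -2.20 (adjusted p = 0.00237). Mmp12 and Mmp13, proteases that cleave matrix, rose by 4.80 ± 0.55 and 3.46 ± 0.34 in DEL and read 1.99 ± 0.51 and 0.36 ± 0.32 in INS (differences -2.81, adjusted p = 0.0319, and -3.10, adjusted p = 0.00134). The Mmp12 difference lost its call in 10 of 19 fits that left out 1 array, and its INS response was called in 3 of 19 and in 3 other settings.

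Chemokines and interferon-stimulated genes followed the same split. Ccl3, a chemokine for monocytes, rose by 3.28 ± 0.50 in DEL and read 0.34 ± 0.47 in INS (difference -2.93, adjusted p = 0.0156), and Ccl2 rose by 3.06 ± 0.50 and read 0.62 ± 0.47 (difference -2.44, adjusted p = 0.042, lost in 13 of 19 fits that left out 1 array). Pf4, platelet factor 4, rose by 3.03 ± 0.45 and read 0.05 ± 0.42 (difference -2.98, adjusted p = 0.00772). Of 26 measured cytokines and chemokines, 16 rose and 1 fell in DEL, none rose and 1 fell in INS, and 9 differences were called, all lower. Oasl2 (difference -1.54, adjusted p = 0.00781) and Ifi27l2a (-2.01, adjusted p = 0.0195) are induced by interferon, and of 20 measured genes of that kind 10 rose in DEL and 1 in INS, with 7 differences called, all lower. INS CornOil replicate 3 read high for Ccl3, Ccl7, Lcn2 and the lymphocyte markers, and without it 5 cytokine and 5 interferon differences were called. Ccl7 (-2.76, adjusted p = 0.0501) and Lcn2, lipocalin (-2.60, adjusted p = 0.068), were not called with all 19 arrays. Without DEL TCDD 125 replicate 1, 11 interferon differences were called.

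Matrix and cell division genes rose in DEL and were not called in INS. Of 20 measured stellate cell and matrix markers, 13 rose in DEL and none was called in INS, with medians of 1.03 and -0.19, and 9 differences were called, all lower. Col1a1, a chain of type I collagen, rose by 2.11 ± 0.34 in DEL and read 0.07 ± 0.32 in INS (difference -2.04, adjusted p = 0.0144). Acta2, smooth muscle actin, rose by 1.89 ± 0.52 and read -0.64 ± 0.49 (difference -2.53, adjusted p = 0.0437, lost in 12 of 19 fits that left out 1 array), and Timp1, an inhibitor of matrix proteases, rose by 2.69 ± 0.44 and read 0.70 ± 0.41 (difference -1.99, adjusted p = 0.0609). Of 25 measured cell cycle genes, 22 rose in DEL and none was called in INS, although their median in INS was 0.39, beside 1.45 in DEL; 9 differences were called, all lower. The proliferation marker Mki67 rose by 2.36 ± 0.29 in DEL and read 0.48 ± 0.27 in INS (difference -1.88, adjusted p = 0.00862), and Ccna2, a cyclin, and Aurkb, a mitotic kinase, differed by -1.75 (adjusted p = 0.0223) and -1.70 (adjusted p = 0.0122). Without DEL TCDD 125 replicate 1, the called differences were 19 of the macrophage, 10 of the neutrophil, 15 of the matrix and 16 of the cell cycle lists.

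Apol7c, an apolipoprotein L gene, showed the sharpest separation among the rises by adjusted p. It read 4.432, 4.139, 4.702, 3.83 and 3.643 in DEL controls and 7.477, 7.073, 8.247 and 7.638 after TCDD. INS mice gave 2.299, 2.565, 2.6, 3.059 and 2.899 with corn oil and 2.535, 2.769, 2.829, 2.804 and 2.759 after TCDD, where the groups overlapped. The responses were 3.46 ± 0.22 and 0.05 ± 0.21 (difference -3.41, adjusted p = 1.34e-05). No INS value of Apol7c lay above the highest Xist value of these 19 male livers (3.134), so its level there was not shown to lie above background.

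Male-biased liver genes fell in DEL and stayed uncalled in INS. Hsd3b5, a steroid dehydrogenase typical of male mouse liver, read 11.9, 11.85, 11.9, 12.37 and 11.97 in DEL controls and 6.466, 5.151, 3.475 and 5.711 after TCDD. In INS it read 11.81, 11.37, 10.91, 12.38 and 12.03 with corn oil and 11.19, 10.56, 10.57, 11.31 and 11.65 after TCDD, with overlapping groups. The response of Hsd3b5 was -6.80 ± 0.42 in DEL and -0.64 ± 0.39 in INS, a difference of 6.16 (95% interval 4.95 to 7.36, adjusted p = 1.68e-05). Slco1a1, an organic anion transporter of male liver, fell by 4.86 ± 0.47 in DEL and read -0.39 ± 0.45 in INS (difference 4.47, adjusted p = 0.00116). Of 21 measured male-biased genes, 17 fell in DEL and none was called in INS, with medians of -1.57 and -0.13, and 11 differences were called, all higher.

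Further falls in DEL with a called difference from INS were those of Serpina4-ps1 (difference 4.69, adjusted p = 0.00394), Car1 (3.67, adjusted p = 0.00228) and Car14 (3.12, adjusted p = 0.00226), carbonic anhydrases. Sult2a8 (3.23, adjusted p = 0.0189), a sulfotransferase, and Serpina12 (3.08, adjusted p = 0.025), vaspin, were others. Car14 was not called in INS with all 19 arrays. Without INS TCDD 1000 replicate 5 its INS response was -1.39 and called (limma, adjusted p = 0.0207). Thrsp, a regulator of lipid synthesis, fell by 2.15 ± 0.67 in DEL and was not called in INS (adjusted p = 0.624, difference 3.15, adjusted p = 0.0492, lost in 16 of 19 fits that left out 1 array). Alas2, the erythroid aminolevulinate synthase of haem synthesis, fell by 1.81 ± 0.19 in DEL and read -0.39 ± 0.18 in INS (difference 1.42, adjusted p = 0.00422).

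Genes of nitrogen metabolism mostly fell in DEL with few called in INS, and glucose genes were mixed. Of 27 measured genes of the urea cycle and amino acid catabolism, 22 fell in DEL and 2 in INS, with medians of -0.90 and -0.20, and 10 differences were called, all higher. Otc, a urea cycle enzyme, fell by 2.18 ± 0.25 in DEL and read -0.42 ± 0.23 in INS (difference 1.76, adjusted p = 0.00552). Gpt, alanine aminotransferase, differed by 1.34 (adjusted p = 0.00302) and Glul, glutamine synthetase, by 1.74 (adjusted p = 0.0106). Hal, histidine ammonia-lyase, fell in both lines, by 1.41 ± 0.15 in DEL and by 0.61 ± 0.14 in INS (adjusted p = 0.0332), and the difference of 0.80 was called (adjusted p = 0.025); the INS call ended in 6 of 19 fits that left out 1 array. Of 17 measured glucose genes, 3 rose and 7 fell in DEL and none was called in INS, with medians of -0.58 and -0.09, and 4 differences were called higher and 1 lower. Khk, ketohexokinase, differed by 2.01 (adjusted p = 0.00299), Pklr, pyruvate kinase, by 2.26 (adjusted p = 0.00657) and Slc2a2, the glucose transporter GLUT2, by 2.03 (adjusted p = 0.0264). Hk2, a hexokinase, rose by 0.93 ± 0.18 in DEL and read -0.20 ± 0.17 in INS (difference -1.13, adjusted p = 0.0114). The other members that rose in DEL were Igfbp1, an insulin-like growth factor binding protein (2.38 ± 0.53, difference -2.15, adjusted p = 0.098), and Fbp1, fructose bisphosphatase (0.23 ± 0.07, difference -0.01, adjusted p = 0.973). Hk2, Igfbp1 and Fbp1 were named after their values were seen.

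Bile acid and lipid synthesis showed the same order of medians. Of 16 measured bile acid synthesis genes, 12 fell in DEL and 1 in INS, with medians of -0.91 and -0.14, and 4 differences were called, all higher. Cyp8b1, the sterol 12-alpha-hydroxylase, fell by 2.07 ± 0.35 in DEL and read -0.05 ± 0.33 in INS (difference 2.02, adjusted p = 0.0167), and Cyp7b1 fell by 1.80 ± 0.28 and read -0.03 ± 0.26 (difference 1.77, adjusted p = 0.01). Cyp7a1, the rate-limiting enzyme, fell by 2.68 ± 0.72 in DEL and read 0.35 ± 0.67 in INS, and its difference of 3.02 was not called (adjusted p = 0.0825). Slco2b1, an anion transporter, fell by 2.25 ± 0.16 in DEL and read -0.54 ± 0.15 in INS (difference 1.71, adjusted p = 0.000401).

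Of 22 measured genes of fatty acid and triglyceride synthesis, 16 fell in DEL and 1 in INS, with medians of -1.05 and -0.09, and 5 differences were called, all higher. Srebf1, the transcription factor of that pathway, fell by 2.05 ± 0.27 in DEL and read -0.40 ± 0.26 in INS (difference 1.66, adjusted p = 0.0121). Fasn, fatty acid synthase (difference 1.72, adjusted p = 0.0594), and Elovl3, an elongase (2.98, adjusted p = 0.0761), were not called. Lpl, lipoprotein lipase, rose by 1.75 ± 0.35 in DEL and read -0.01 ± 0.33 in INS (difference -1.75, adjusted p = 0.0383, lost in 13 of 19 fits that left out 1 array), and Cidec, a lipid droplet protein, differed by -2.14 (adjusted p = 0.179). Without DEL TCDD 125 replicate 1, the called differences were 17 of the urea cycle, 8 of the bile acid and 11 of the fatty acid synthesis lists, and 8 of the NRF2 list.

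**Figure D5:**
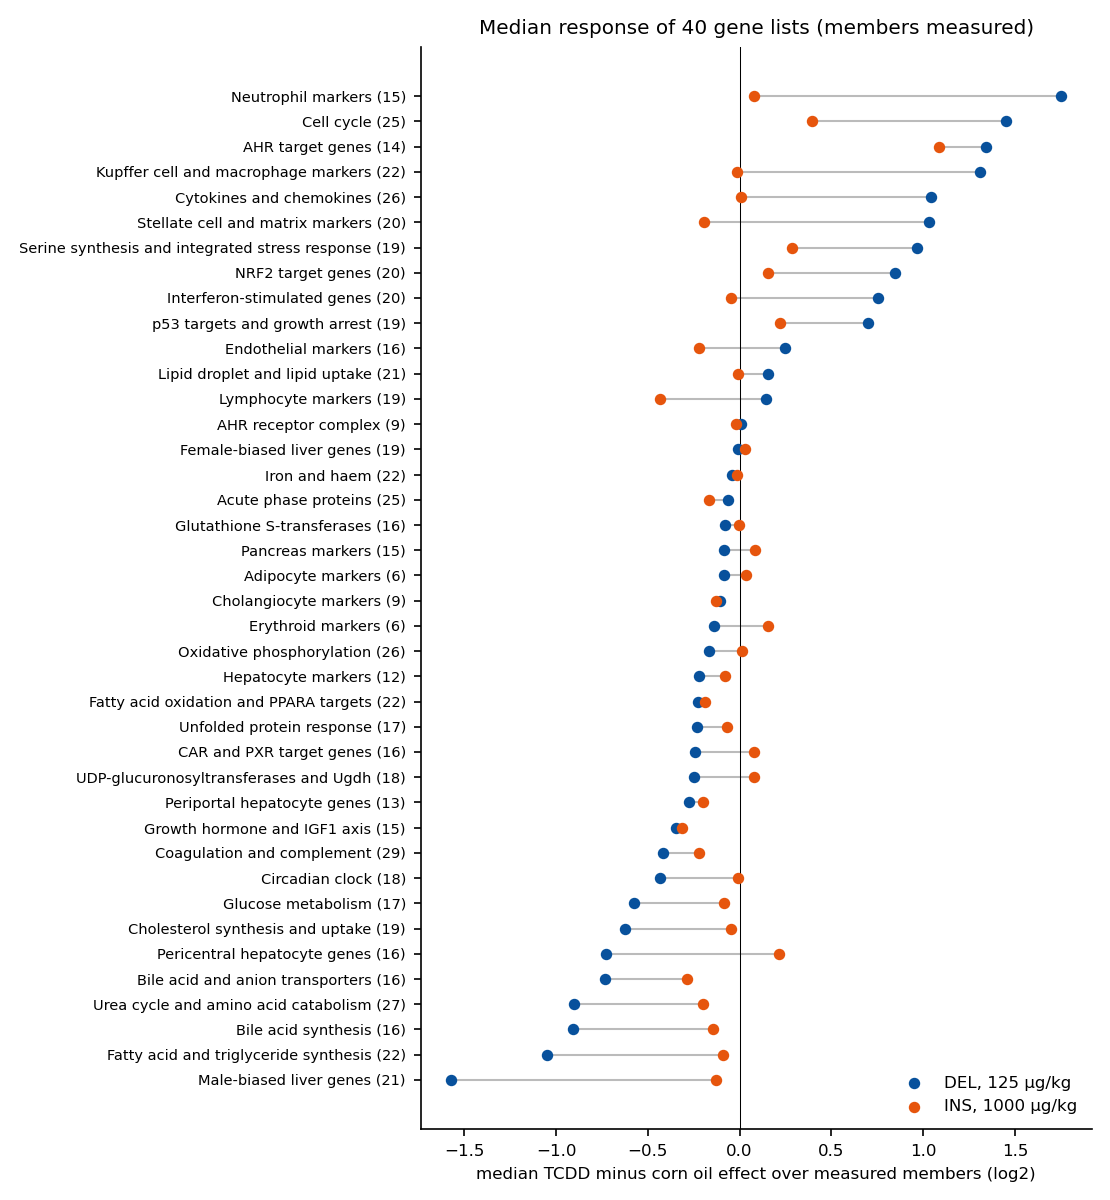
Median TCDD minus corn oil response (log2) over the measured members of 40 gene lists in DEL at 125 µg/kg and INS at 1000 µg/kg, joined by a line, with the number of members measured. The medians of the AHR target list, 1.34 and 1.09, lie close together, while those of the macrophage list, 1.31 and -0.01, and of the male-biased list, -1.57 and -0.13, lie apart.

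In all, 38 of 40 lists had fewer members called in INS than in DEL, and 20 had none called in INS. Over all features, 19.2% were called in DEL and 1.3% in INS. With such shares, lists of any kind would tend to have fewer members called in INS, and often none. The medians over all features were -0.04 in DEL and -0.02 in INS. The 12 hepatocyte markers had a mean level of 12.67 to 12.94 in treated and 13.03 to 13.13 in control DEL livers. In INS livers it was 12.76 to 13 with TCDD and 12.89 to 13.09 with corn oil. In DEL 5 of these markers fell, none was called in INS, and no difference was called. With median centring, 8 fell in DEL and 1 difference was called. Without DEL TCDD 125 replicate 1, 2 differences were called.

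Calls of the difference for single genes depended on which arrays entered the fit and on the scaling. When all 60 arrays entered the fit, 25 differences of named genes lost their call, with adjusted p from 0.0506 for Ccna2 to 0.425 for Hal. They were those of Ahrr, Fgf21, Psat1, Gstm3, Gstm6, Gstt1, Hmox1, Mmp12, Ccl2, Trem2, Acta2, Ccna2, Aurkb, Sult2a8, Serpina12, Alas2, Otc, Hal, Slc2a2, Cyp8b1, Cyp7b1, Lpl, Nr1d1, Foxp1 and Cd79b. Median centring ended those of Ahrr, Xdh, Hmox1, Gstm3, Slc8b1, Cd74, Foxp1 and Cd79b. Their direction was the same in each of these fits.

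Only 4 features responded further in INS than in DEL, all lower in INS. Nr1d1, the clock repressor REV-ERB alpha, read 10.52, 11.08, 11.03, 10.84 and 11.47 in INS controls and 9.137, 9.405, 9.343, 9.111 and 9.354 at 1000 µg/kg. It read 11.19, 11.22, 10.86, 11.07 and 11.27 in DEL controls and 10.49, 10.59, 9.993 and 10.72 at 125 µg/kg. Neither line overlapped with its controls. The Nr1d1 response was -1.72 ± 0.15 in INS and -0.67 ± 0.16 in DEL, a difference of -1.04 (95% interval -1.51 to -0.57, adjusted p = 0.00999), which was not called when all 60 arrays entered the fit (adjusted p = 0.168).

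Nr1d1 was also the feature with the lowest p between the INS doses, with a step of -1.64 ± 0.17 from 125 to 1000 µg/kg (adjusted p = 4.18e-05), while INS at 125 µg/kg read 11.22, 10.79, 10.56 and 11.05, within the range of its controls. The other features called between the doses, named because they were so few and chosen after their values were seen, were Arrdc3 (-1.33, adjusted p = 0.00647), Slc7a2 (-1.02, adjusted p = 0.00416), Spata13 (-0.95, adjusted p = 0.0351) and Tns2 (-0.80, adjusted p = 0.0382). Of 18 measured clock genes, Nr1d1 was the only one called in INS. Cry1, a clock repressor, fell by 0.62 ± 0.20 in DEL and read 0.57 ± 0.19 in INS (difference 1.19, adjusted p = 0.0147); the DEL call ended in 6 of 19 fits that left out 1 array (adjusted p up to 0.0979). The sources used here do not give the hour of the day at which each liver was taken, and its part in these values was not tested.

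The other 3 features that went beyond DEL were near the threshold. Cd74, the invariant chain of class II antigen presentation, read 10.14, 10.12, 10.58, 9.491 and 10.17 in INS controls and 8.793, 9.163, 9.303, 9.484 and 9.562 at 1000 µg/kg, groups that overlapped. Its INS response was -0.84 ± 0.21 (adjusted p = 0.0493) beside 0.27 ± 0.22 in DEL (difference -1.11, adjusted p = 0.0344), and the INS call ended in 15 of 19 fits that left out 1 array. Slc8b1, a mitochondrial sodium and calcium exchanger, responded by -0.99 ± 0.23 in INS and 0.16 ± 0.24 in DEL (difference -1.16, adjusted p = 0.0451), and Foxp1, a transcription factor, by -0.59 ± 0.12 and 0.06 ± 0.13 (difference -0.65, adjusted p = 0.0324). Their differences lost the call in 13 and 11 of 19 such fits. Cd79b, a B cell receptor chain, was called for the difference (-0.99, adjusted p = 0.0442) with neither response called, and the mean level of the 19 lymphocyte markers was 4.619 to 4.875 in treated INS livers and 4.831 to 6.112 in INS controls, the highest being replicate 3; its part in the Cd79b and Cd74 values was not tested.

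A further 45 features were called in INS with no called response in DEL and no called difference. Among them was Tfrc, the transferrin receptor, which rose by 1.08 ± 0.22 in INS (adjusted p = 0.0167) and read 0.55 ± 0.24 in DEL (adjusted p = 0.121); the difference of 0.53 had a 95% interval of -0.15 to 1.21. For such features neither a response particular to INS nor an equal one was shown.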

How the data were processed

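Liver RNA of male mice was measured on 1 array per animal. The deposited values are log2 expression, 1 feature per gene, made by the authors with RMA (R 3.1.2 and affy 1.44.0, per the submitters' processing notes). The sources used here do not give the probe-set definition or build. All 21115 features of the 19 arrays were used as deposited, with no filter or scaling. Of these, 20405 carried 1 gene symbol and 710 none. The members and the gene lists were chosen with earlier results of these data known.

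A mean per group was fitted by limma 3.58.1 under R 4.3.3, with eBayes and two-sided tests, and 1 contrast gave the INS response at 1000 µg/kg minus the DEL response at 125 µg/kg. All 4 groups shared the estimate of spread. Adjustment was by Benjamini-Hochberg over all features, with calls at 0.05, and values are log2 differences ± SE. The INS dose comparison added the 4 INS arrays at 125 µg/kg (23 arrays in all). The 17 rWT arrays were fitted apart. The fit was tested on simulated data with large effects set in DEL alone and none in INS. The sorting of features into classes was not tested in this way. For arrays, the number of animals limits the precision.

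Named genes were 7 AHR genes, the 8 largest short rises and falls, the 8 matched rises and falls with the largest smaller effect of both lines, the 6 largest beyond in each direction, and up to 4 members of each list with the largest difference among those called; predicted genes were left out. Of the matched rises within 1 unit, Cyp1a1 and Cyp1b1 are among the 8. Nptx1, Ecel1, Pcp4l1, Arrdc3, Slc7a2, Spata13 and Tns2 fall outside this rule. Promoters are from RefSeq, matched by gene ID. Alternatives were quantile normalization, median centring, a fit over all 60 arrays, a filter on low means, eBayes with trend and robust options, a replicate block, leaving out each array, and, added after seeing the data, array weights by line. The 40 lists held 791 memberships, 723 of them measured.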

Additional observations from a re-analysis of the deposited data

Results flagged for a closer look

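The response of INS at 1000 µg/kg differed from that of DEL at 125 µg/kg, by a test of the difference itself in limma, for 1181 features. That was 5.59% of all features. Of the 99 genes looked at singly, 59 had a called difference, with adjusted p-values given above. Many of these genes were chosen by the size of this difference or by the calls. The 59 of 99 therefore follows from the choice and is not a result about the genes. Among the genes lower in INS, the difference was -4.55 for Gpnmb, -3.41 for Apol7c, -3.10 for Mmp13, -2.98 for Pf4, -2.93 for Mmp8, -2.93 for Ccl3, -2.81 for Mmp12, -2.79 for Clec7a and -2.71 for Slc7a11. Next came -2.53 for Acta2, -2.44 for Ccl2, -2.23 for S100a8, -2.21 for Itgam, -2.20 for Mmp9, -2.19 for Trem2, -2.04 for Col1a1, -2.01 for Ifi27l2a and -1.97 for Gadd45b. It was -1.95 for Marco, -1.88 for Mki67, -1.85 for Tnfrsf10b, -1.75 for Lpl, -1.75 for Ccna2, -1.70 for Aurkb, -1.54 for Oasl2, -1.53 for Psat1 and -1.38 for Hmox1. Smaller differences were -1.16 for Slc8b1, -1.13 for Fgf21, -1.11 for Cd74, -1.11 for Ahrr, -1.04 for Nr1d1, -0.99 for Cd79b, -0.78 for Xdh, -0.69 for Gstm3 and -0.65 for Foxp1. Among the genes higher in INS relative to DEL, it was 6.16 for Hsd3b5, 4.69 for Serpina4-ps1, 4.47 for Slco1a1, 3.67 for Car1, 3.23 for Sult2a8, 3.15 for Thrsp, 3.12 for Car14 and 3.08 for Serpina12. Further values were 2.26 for Pklr, 2.03 for Slc2a2, 2.02 for Cyp8b1, 2.01 for Khk, 1.77 for Cyp7b1, 1.76 for Otc, 1.74 for Glul and 1.71 for Slco2b1. The smallest were 1.66 for Srebf1, 1.42 for Alas2, 1.34 for Gpt, 1.19 for Cry1, 0.93 for Gstt1, 0.88 for Gstm6 and 0.80 for Hal. 

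In 28 of 438 groups of values 1 array lay far from the others of its group; chance does so in about 1 group in 20. For INS CornOil replicate 3, Ccl3 read 8.144 (others 5.832 to 6.094), Cyp8b1 read 10.06 (others 11.39 to 11.83), Atf3 read 7.188 (others 5.559 to 6.009), Gadd45b read 5.577 (others 4.686 to 4.942), Lcn2 read 10.35 (others 7.634 to 8.146), Ccl7 read 6.701 (others 4.606 to 5.023) and the mean of the lymphocyte markers read 6.112 (others 4.831 to 5.131). For DEL TCDD 125 replicate 1, Ahr read 9.911 (others 9.516 to 9.57), Gpnmb read 9.19 (others 10.95 to 11.28), Mmp8 read 4.997 (others 7.055 to 7.406), Mmp9 read 6.194 (others 7.581 to 7.656) and Timp1 read 6.483 (others 8.454 to 8.744). For INS TCDD 1000 replicate 3, Pklr read 9.998 (others 11.43 to 11.92), Slc2a2 read 9.682 (others 10.55 to 10.72), Tnfrsf10b read 6.193 (others 4.449 to 4.822) and Mmp9 read 4.715 (others 4.065 to 4.179). Apol7c read 2.535 in INS TCDD 1000 replicate 1 (others 2.759 to 2.829), Foxp1 read 7.592 in INS TCDD 1000 replicate 1 (others 7.953 to 8.051), and Hsd3b5 read 12.37 in DEL CornOil replicate 4 (others 11.85 to 11.97). Cyp7b1 read 8.788 in DEL TCDD 125 replicate 3 (others 10.12 to 10.38), Psat1 read 10.9 in DEL TCDD 125 replicate 3 (others 9.525 to 9.734), and Cidec read 9.094 in INS CornOil replicate 2 (others 5.434 to 6.06). Cry1 read 6.22 in INS CornOil replicate 1 (others 5.256 to 5.506), the mean of the adipocyte markers read 4.984 in INS CornOil replicate 1 (others 5.284 to 5.327), and Mmp9 read 5.206 in INS CornOil replicate 5 (others 4.232 to 4.514). Slc7a2 read 10.78 in DEL TCDD 125 replicate 4 (others 11.09 to 11.15), Pcp4l1 read 6.719 in DEL CornOil replicate 3 (others 7.502 to 7.78), and the mean of the cholangiocyte markers read 4.849 in INS TCDD 1000 replicate 5 (others 4.655 to 4.697). In INS CornOil replicate 3, Ccl3, Ccl7, Lcn2, Atf3, Gadd45b and the lymphocyte marker mean read high and Cyp8b1 low, and in DEL TCDD 125 replicate 1, Gpnmb, Mmp8, Mmp9 and Timp1 read low and Ahr high.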

How the results depend on the processing

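No called response or difference of a named gene changed direction in any alternative that was run, but the balance over all features did. Centring on the median gave 7604 called features in DEL, 1576 higher and 6028 lower (2266 and 1786 without it), and 1377 differences, 803 higher and 574 lower (320 and 861 without it). With all 60 arrays in the fit, 736 differences were called and 715 features fell short (665 of them shared with the 1149), 32 named-gene calls ended, and the INS dose comparison called 9 features; the cause was not tested. That dose comparison called 18 features among those above the median level and 21 with a replicate block. With no minimum effect the rWT list held 3942 rises and 3441 falls, of which 2.84% and 2.7% were called in INS and 19.3% and 8.4% were called short, a list that holds smaller effects by construction.

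Leaving out 1 array at a time gave 724 to 2116 differences, 3169 to 4505 calls in DEL, 168 to 339 in INS, 714 to 2013 short features, 132 to 259 matched features and 85 to 180 of them within 1 unit. The rWT rises called in INS ranged from 4.27% to 6.94%, the falls from 3.89% to 8.79%, and the shares called short from 27% to 65.9% and from 20% to 44%. The mean slope ranged from 11.6% to 16.4% in INS and from 56.5% to 73.7% in DEL, and the dose comparison from 2 to 29 features. Summed over these fits, 248 named-gene calls ended and 37 began.

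The labels number the replicates of each group and do not say whether the numbers pair the samples. The deviations of same-numbered arrays correlated at -0.371 to 0.361 (median 0.0757). Those of arrays with other numbers correlated at -0.401 to 0.437 (median -0.00662). Of 19 arrays, 7 correlated best with their own number. These values do not settle whether the samples were paired. The replicate block gave 1297 differences, 3874 calls in DEL and 309 in INS. Quantile normalization gave 1239 differences, of which the short features shared 984 with the 1149 above, and array weights by line gave 1185. The number of arrays, 4 or 5 per group, limits the precision of each response.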
